A study of Mus musculus with 6 samples.

Results

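The mitochondrial ribosome is the ribosome inside mitochondria, and its proteins are encoded in the nucleus and imported. Genes of its small (Mrps) and large (Mrpl) subunit were chosen by symbol alone, as every entry whose name is Mrps or Mrpl followed by a number and at most 1 letter, with a mean of at least 1 FPKM over the 6 libraries. FPKM are fragment levels scaled for transcript length and library total. All 76 matching entries passed this limit, 29 with a small-subunit and 47 with a large-subunit symbol, among 23850 gene entries in all, of which 10096 had a mean of at least 1 FPKM and were tested.

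The libraries came from wild type C57BL/6J mouse B cells, 3 treated with CHIR99021 at 3 uM and 3 given DMSO. CHIR99021 blocks the kinase GSK3, and DMSO is its solvent, beside which the labels print the same figure. In all 6, naive follicular B cells had first been turned into germinal centre-type B cells in a 4-day culture on CD40L-expressing feeder cells, with 1 ng/ml of IL-4. Treatment then lasted 36 h in the presence of feeder cells and of IL-21, given at 10 ng/ml. The question set by the series is how the messenger RNA profile differs when GSK3 is inhibited. The cells are made in culture, and the labels name no sorting marker for the purification that preceded RNA extraction.

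Mitochondrial ribosomes translate the few messenger RNAs encoded by mitochondrial DNA, which specify core subunits of the respiratory chain and the ATP synthase. Their small subunit reads the messenger RNA and their large subunit joins the amino acids. Many of their proteins have a counterpart in bacterial ribosomes (names such as uS5m or bL12m), and others are found only in mitochondria (names such as mS22 or mL38). Germinal centre B cells are activated, dividing B cells, and B cell activation is known to come with growth of the mitochondrial translation and respiratory apparatus.

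Most genes of this ribosome had slightly higher values with CHIR99021 than with DMSO. Few of them passed the test singly when the fit left out the replicate number. With the replicate number as a block, 30 of the 76 (39.5%) rose, against 18.4% of all tested genes. The test was limma on log2(FPKM + 1), with p-values adjusted by the Benjamini-Hochberg method over all 10096 genes. Without the block, 9 of the 76 (11.8%) rose and 1 (1.32%) fell. Over all tested genes, 8.13% rose and 13.3% fell. In this fit the share that rose was thus near the background and the share that fell was below it. In either direction this fit called 21.4% of all tested genes. The background was not matched for precision, as the median standard error was 0.10 in the family and 0.14 over all tested genes. The genes that rose without the block were Mrpl38, Mrps22, Mrpl15, Mrps5, Mrpl50, Mrps18b, Mrpl12, Mrpl45 and Mrpl42, and the gene that fell was Mrpl41. The log2 change was positive for 57 of the 76 (75%), against 45.2% of all tested genes, and its median was 0.16, with quartiles of 0.00 and 0.27, against a median of -0.04 over all tested genes. These shares and medians describe the list, which was not itself tested.

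The deviations of libraries that carry the same replicate number went together, so the fit with the replicate number as a block bears on every count here. With this block, 30 of the 76 (39.5%) rose and 2 (2.63%) fell, against 18.4% and 24.4% of all tested genes (42.8% in either direction). All 10 genes called without the block were among these. Without any model, the 3 CHIR99021 libraries all lay above the 3 DMSO libraries for 29 of the 76 genes (38.2%) and all below for 3 (3.95%), against 17.0% and 23.1% of all tested genes. Of the 76 genes, 39 were higher with CHIR99021 in each of the 3 same-numbered pairs and 10 in none of them, against 29.3% and 37.4% of all tested genes.

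The counts depended on scaling and on single libraries. Upper-quartile scaling gave 17 genes higher and 1 lower, against 11.0% and 11.6% of all tested genes (22.7% in either direction). Quantile scaling gave 18 and 0, against 12.2% and 11.6% (23.8%). Over the whole table, the 821 higher and 1343 lower calls became 1115 and 1174 with upper-quartile scaling and 1232 and 1174 with quantile scaling. They became 442 and 1195 with every library scaled to the same summed FPKM, which left 4 of the 76 higher. The count of genes that rose was 4 without CHIR99021 replicate 2 and 3 without CHIR99021 replicate 3.

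Markers of cell state and of other cells are given beside these counts, and their part in them was not tested. The general B cell markers Cd79a, Cd79b, Ms4a1 and Pax5 fell with CHIR99021, as did the germinal centre gene Fas, and 2 of 5 plasma cell genes rose (Prdm1 and Irf4). With the block Bcl6 also fell and Gcsam rose among germinal centre genes, and Xbp1 rose and Igj fell among plasma cell genes (limma, adjusted p = 0.00307, 0.0189, 0.0172 and 0.00134). Fibroblast markers, looked at because feeder cells were present, summed to 52.2 to 223 FPKM in CHIR99021 libraries and 71.5 to 288 FPKM in DMSO libraries over 8 genes. Most of that was collagen Col1a1, at 165, 65.3 and 33.3 FPKM with CHIR99021, against 202, 69.2 and 36.2 FPKM with DMSO. Col1a1 followed the replicate number and was lower with CHIR99021 in each numbered pair (limma, adjusted p = 0.904, 0.0765 with the block). Col1a2 and Col3a1 fell only with the block (limma, adjusted p = 0.712 and 0.406 without it, 0.00479 and 0.00629 with it). Thy1 had 4.21, 4.58 and 6.97 FPKM with CHIR99021, against 11, 9.01 and 20.6 FPKM with DMSO, and it fell (log2 change -1.16, limma adjusted p = 0.0278). The other 4 fibroblast markers, Dcn, Lum, Pdgfra and Pdgfrb, had group means under 1 FPKM and did not all go the same way. Lum had 0.336, 1.07 and 0.497 FPKM with CHIR99021, against 0.0929, 0 and 0.0760 FPKM with DMSO, so each CHIR99021 library was above each DMSO library. Dcn also had the higher mean with CHIR99021 (0.726 against 0.535 FPKM), while Pdgfra and Pdgfrb had the lower. None of the 4 reached the limit for testing. T cell markers summed to 0.0355 to 0.826 FPKM in CHIR99021 and 0.0319 to 1.54 FPKM in DMSO libraries over 5 genes, and myeloid markers to 2.48 to 5.74 and 6.02 to 8.05 FPKM over 6 genes, with Cd3e and Cd14 listed at 0 in every library. Of the myeloid markers Itgam fell, with 2.01, 1.20 and 1.03 FPKM with CHIR99021, against 5.68, 4.43 and 5.90 FPKM with DMSO (log2 change -1.41, limma adjusted p = 0.00264). S100a8 went the other way, with 1.68, 2.08 and 0 FPKM with CHIR99021, against 0 in every DMSO library, and was too low to test. Lyz2 had the lower mean with CHIR99021 and was not called (limma, adjusted p = 0.696). Csf1r and Emr1 also had lower means with CHIR99021, all under 1 FPKM. In bulk RNA, fewer cells of a type and less RNA per cell cannot be told apart.

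**Figure D1:**
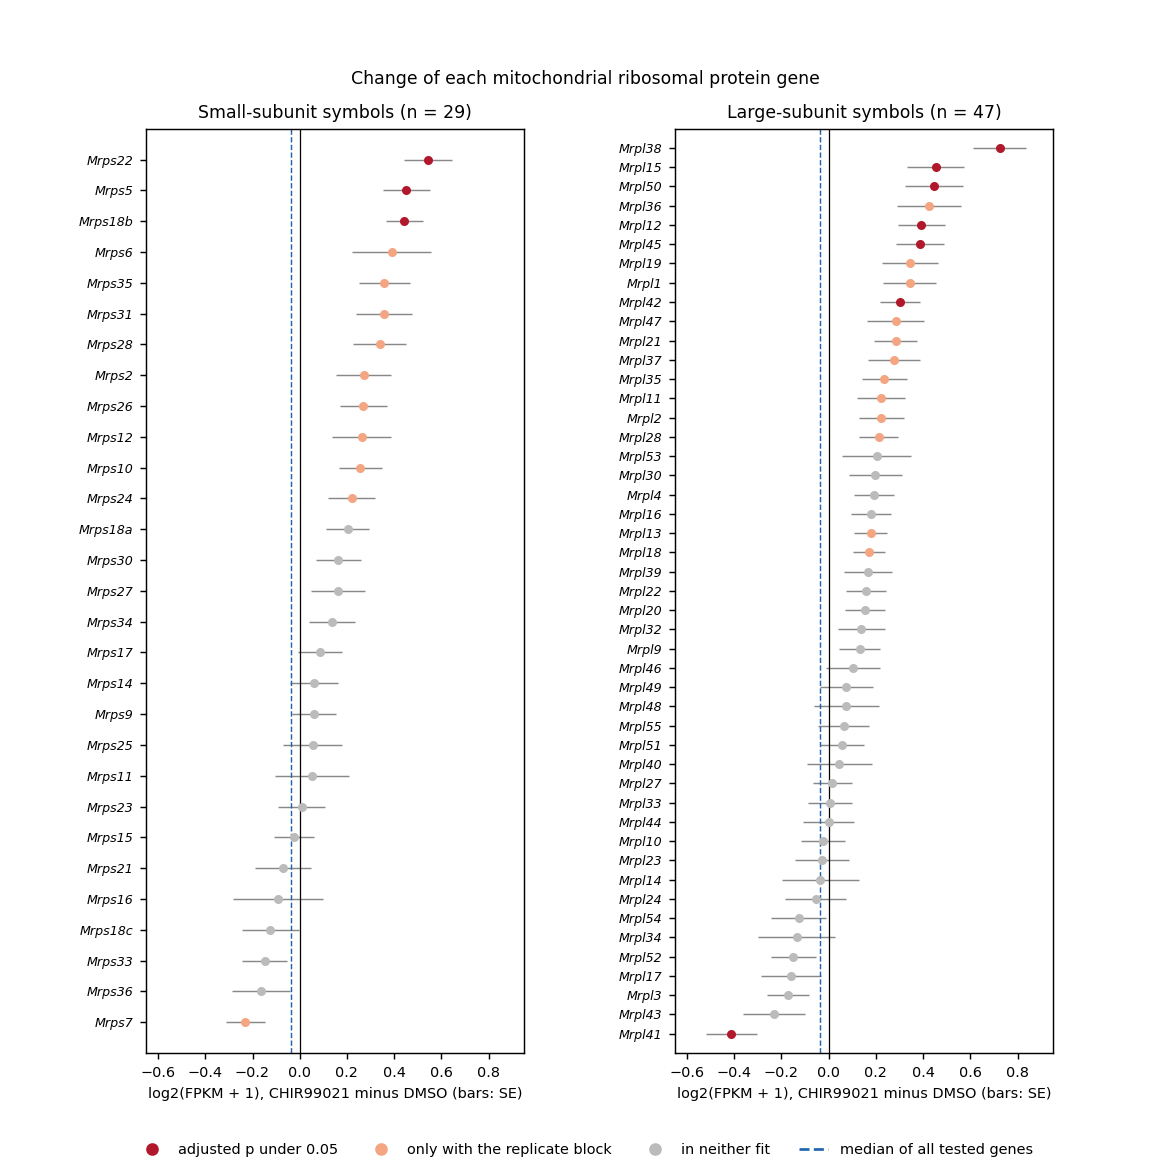
Difference in log2(FPKM + 1), CHIR99021 minus DMSO, for each of the 29 small-subunit and 47 large-subunit genes, with the standard error as bars. Dark red points passed the test, light red points passed it only with the replicate block, and the dashed line is the median of all tested genes at -0.04; most points of both panels lie to the right of it.

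The RefSeq promoter table has no entry for Mrpl38 and Mrpl15, which had the 2 largest called rises of the large subunit. Sequences around the transcription start are shown for the 2 genes with the largest called rise in each subunit among those with an entry. The sequence of the gene that fell is given too. Each runs 5′ to 3′ on the gene's strand from 100 bases before to 50 bases after the start on GRCm38.p6. Capitals mark the letters CCGGAAG, the core bound by ETS factors such as GABP, or ATGGCGG, a form of the YY1 site; both factors are known regulators of nuclear genes for mitochondrial proteins. The regions are chr9:98601630-98601779 on the minus strand for Mrps22, chr2:127587326-127587475 on the plus strand for Mrps5, chr4:49521034-49521183 on the minus strand for Mrpl50, chr11:120484537-120484686 on the plus strand for Mrpl12 and chr2:24975049-24975198 on the minus strand for Mrpl41.
Mrps22: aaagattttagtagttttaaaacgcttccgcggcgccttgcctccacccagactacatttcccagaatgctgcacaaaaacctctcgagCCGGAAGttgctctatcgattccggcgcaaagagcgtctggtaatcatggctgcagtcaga
Mrps5: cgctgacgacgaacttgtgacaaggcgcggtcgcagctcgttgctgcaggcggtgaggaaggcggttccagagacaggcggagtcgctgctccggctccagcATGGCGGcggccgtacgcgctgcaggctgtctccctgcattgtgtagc
Mrpl50: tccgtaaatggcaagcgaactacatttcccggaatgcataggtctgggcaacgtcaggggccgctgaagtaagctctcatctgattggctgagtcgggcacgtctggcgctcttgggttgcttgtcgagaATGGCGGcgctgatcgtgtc
Mrpl12: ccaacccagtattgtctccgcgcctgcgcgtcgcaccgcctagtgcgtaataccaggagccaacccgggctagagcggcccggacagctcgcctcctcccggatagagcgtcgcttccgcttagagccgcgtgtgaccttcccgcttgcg
Mrpl41: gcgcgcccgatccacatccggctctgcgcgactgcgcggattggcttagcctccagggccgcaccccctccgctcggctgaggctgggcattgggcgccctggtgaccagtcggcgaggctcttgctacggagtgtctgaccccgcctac
The ETS letters of Mrps22 begin 11 bases before its start, and the YY1 letters begin at base 2 after the start in Mrps5 and at base 30 in Mrpl50. Mrpl12 and Mrpl41 hold neither in these windows.

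Among the small-subunit genes, 3 of 29 (10.3%) rose and none fell without the block, against 8.13% and 13.3% of all tested genes. The median log2 change was 0.16. An unadjusted limma p under 0.05, in either direction, was found for 11 of the 29 and for 3613 of all 10096 tested genes. Mrps22, which encodes the mitochondria-specific protein mS22 and lies at chr9:98588730-98601679, had 32.1, 29.7 and 35 FPKM with CHIR99021, against 22.8, 19.8 and 22.9 FPKM with DMSO. The groups did not overlap, and the mean was 1.48-fold that in DMSO libraries, with a log2 change of 0.54 ± 0.10 (SE, n = 3 per group; limma, adjusted p = 0.00883, 0.000946 with the block). Mrps22 passed the test under all 17 other settings tried, leaving out each library included.

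Mrps5 (uS5m), a conserved protein near the path by which messenger RNA enters the small subunit, lies at chr2:127587426-127603986 and had 32.4, 34.5 and 37.1 FPKM with CHIR99021, against 23.3, 24.1 and 27.9 FPKM with DMSO. All CHIR99021 libraries were above all DMSO libraries, by a log2 change of 0.45 ± 0.10 (limma, adjusted p = 0.0174, 0.00168 with the block). Without CHIR99021 replicate 2, CHIR99021 replicate 3 or DMSO replicate 1 the adjusted p of Mrps5 from limma was 0.0527, 0.0797 and 0.0517.

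Mrps18b belongs to a set of 3 relatives, Mrps18a, Mrps18b and Mrps18c, all related to the bacterial protein S18 but placed at different sites of the ribosome. Mrps18b (mS40), at chr17:35910385-35916369, had 52.1, 54.8 and 54.7 FPKM with CHIR99021, against 37.1, 41.3 and 39.8 FPKM with DMSO. Its groups were apart, with a log2 change of 0.44 ± 0.08 (limma, adjusted p = 0.00747, 0.00139 with the block), and it kept its call whichever library was left out. Mrps18a, whose protein mL66 sits in the large subunit despite the symbol, had 63, 61.9 and 55.4 FPKM with CHIR99021, against 48.4, 55.8 and 52.2 FPKM with DMSO. Its groups overlapped (log2 change 0.20, limma adjusted p = 0.153, 0.0617 with the block). Mrps18c (bS18m), which takes the place of the bacterial S18, had 70.1, 70.4 and 87.5 FPKM with CHIR99021, against 93.4, 76.3 and 78.9 FPKM with DMSO. CHIR99021 replicate 3 and DMSO replicate 1 were the highest of their groups, which overlapped (log2 change -0.12, limma adjusted p = 0.510). The difference between the changes of the 3 relatives was not tested.

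Of the small-subunit genes not called above, 9 rose only with the block, and Mrps7 fell only with it. Mrps12 (uS12m), a protein of the decoding site known for its part in the accuracy of translation, had 54.4, 57.4 and 72 FPKM with CHIR99021, against 49.1, 46.7 and 56.2 FPKM with DMSO. CHIR99021 replicate 1 lay below DMSO replicate 3, and the log2 change of 0.26 gave a limma adjusted p of 0.177, and 0.0165 with the block. Mrps7 (uS7m), a conserved protein of the head of the small subunit, had 94.9, 103 and 104 FPKM with CHIR99021, against 125, 112 and 118 FPKM with DMSO. Every CHIR99021 library of Mrps7 was below every DMSO library, with a log2 change of -0.23 ± 0.08 (limma, adjusted p = 0.0832, 0.0339 with the block). The remaining 8 that rose only with the block were Mrps6, Mrps35, Mrps31, Mrps28, Mrps2, Mrps26, Mrps10 and Mrps24.

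Mrps21 (bS21m) had the highest mean level of the small-subunit genes, with 153, 130.3 and 125 FPKM with CHIR99021, against 156, 124 and 149.6 FPKM with DMSO, and its groups overlapped. Mrps25 (mS25) had the lowest, with 6.27, 7.15 and 6.48 FPKM with CHIR99021, against 5.69, 7.22 and 6.17 FPKM with DMSO, also overlapping. Mrps31 (mS31), the next lowest, had 10.7, 10.4 and 10.7 FPKM with CHIR99021, against 8.27, 6.98 and 9.11 FPKM with DMSO. Its groups were apart (log2 change 0.36, limma adjusted p = 0.0676, 0.0184 with the block). Mrps30, whose protein mL65 is placed in the large subunit, had 25.9, 26.5 and 28.4 FPKM with CHIR99021, against 24.1, 26.1 and 21.8 FPKM with DMSO. DMSO replicate 2 lay between the CHIR99021 libraries (limma, adjusted p = 0.266). Mrps36, now known as a component of the oxoglutarate dehydrogenase complex rather than of the ribosome, had 38.3, 31.9 and 37.5 FPKM with CHIR99021, against 44.8, 34.5 and 42.1 FPKM with DMSO. Each CHIR99021 library was below the DMSO library of its number, while the groups overlapped (limma, adjusted p = 0.380, 0.0648 with the block).

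Among the large-subunit genes, 6 of 47 (12.8%) rose and 1 (2.13%) fell without the block, against 8.13% and 13.3% of all tested genes. The median log2 change was 0.16. An unadjusted limma p under 0.05, in either direction, was found for 18 of the 47 and for 3613 of all 10096 tested genes. Mrpl38 (mL38), a mitochondria-specific protein at chr11:116131817-116138868, changed most of the 76, with 39.2, 49.4 and 49.9 FPKM with CHIR99021, against 25.9, 28.1 and 28.2 FPKM with DMSO. CHIR99021 replicate 1 was the lowest of its group and still above every DMSO library. The mean was 1.68-fold that in DMSO libraries, and the log2 change of 0.72 ± 0.11 passed the test under all 17 other settings (limma, adjusted p = 0.00431, 0.000467 with the block).

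Mrpl15 (uL15m), a conserved protein of the core of the large subunit at chr1:4773200-4785726, had 23.6, 26.5 and 28.7 FPKM with CHIR99021, against 16.3, 21.2 and 19.5 FPKM with DMSO. Its groups were apart (log2 change 0.45 ± 0.12, limma adjusted p = 0.0347, 0.00342 with the block). Mrpl50 (mL50), at chr4:49512597-49521083, had 16.5, 19 and 21.2 FPKM with CHIR99021, against 12.4, 13.3 and 15.1 FPKM with DMSO. These too did not overlap (log2 change 0.45 ± 0.12, limma adjusted p = 0.0366, 0.00274 with the block). Leaving out 1 library could end both calls. Mrpl15 lost its call without CHIR99021 replicate 2 or 3 or DMSO replicate 1 or 3, with limma adjusted p up to 0.136. Mrpl50 lost its call when any library other than CHIR99021 replicate 1 was left out, with limma adjusted p up to 0.141.

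Mrpl12 (bL12m), the protein of the flexible stalk to which translation factors bind, lies at chr11:120484669-120488754 and had 149, 156 and 177 FPKM with CHIR99021, against 128, 111 and 127 FPKM with DMSO. It had the highest mean level of all 76 genes, and its groups did not overlap (log2 change 0.39 ± 0.10, limma adjusted p = 0.0275, 0.00443 with the block). Mrpl45 (mL45), which lies near the exit of the peptide tunnel and holds the ribosome to the inner membrane, at chr11:97315716-97329920, had 50.4, 43.2 and 49.2 FPKM with CHIR99021, against 36.5, 32.7 and 39.6 FPKM with DMSO. Its change again separated the groups (log2 change 0.39 ± 0.10, limma adjusted p = 0.0334, 0.00316 with the block). Mrpl42 (mL42), at chr10:95480806-95501927, had 103, 108 and 117 FPKM with CHIR99021, against 84, 93.5 and 88.1 FPKM with DMSO. This was the smallest of the called rises (log2 change 0.30 ± 0.08, limma adjusted p = 0.0397, 0.00758 with the block). In all 3 genes each CHIR99021 library was above each DMSO library. Leaving out CHIR99021 replicate 3 gave them limma adjusted p-values of 0.109, 0.125 and 0.152, and at least 3 of the other leave-outs also ended each call.

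Mrpl41 (mL41), a mitochondria-specific protein of the large subunit at chr2:24972470-24975098, was the gene that fell, with 7.01, 7.14 and 7.74 FPKM with CHIR99021, against 10.9, 9.31 and 9.99 FPKM with DMSO. All CHIR99021 libraries were below all DMSO libraries, with a log2 change of -0.41 ± 0.11 (limma, adjusted p = 0.0313, 0.00968 with the block). The call was lost when any library other than DMSO replicate 2 was left out, with adjusted p from 0.0782 to 0.0923 in limma, and with quantile scaling (0.0792). Its level was also among the lowest of the family, and its deposited span overlaps that of Wdr85, which had means of 7.20 FPKM in CHIR99021 and 6.30 FPKM in DMSO libraries (limma, adjusted p = 0.475).

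The highest large-subunit level after Mrpl12 was that of Mrpl52 (mL52), with 143, 122 and 134 FPKM with CHIR99021, against 144, 138 and 162 FPKM with DMSO and overlapping groups. Mrpl17 (bL17m) was the second lowest after Mrpl41, with 7.99, 7.66 and 9.36 FPKM with CHIR99021, against 10.2, 8.24 and 9.89 FPKM with DMSO, also overlapping. A further 12 large-subunit genes rose only with the block: Mrpl36, Mrpl19, Mrpl1, Mrpl47, Mrpl21, Mrpl37, Mrpl35, Mrpl11, Mrpl2, Mrpl28, Mrpl13 and Mrpl18. Over both subunits, the 21 genes that rose only with the block had log2 changes of 0.17 to 0.42, with limma adjusted p from 0.0514 to 0.177 without the block and from 0.00650 to 0.0496 with it. The 44 genes called in neither fit had log2 changes between -0.23 and 0.20, and 27 of these were positive.

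**Figure D2:**
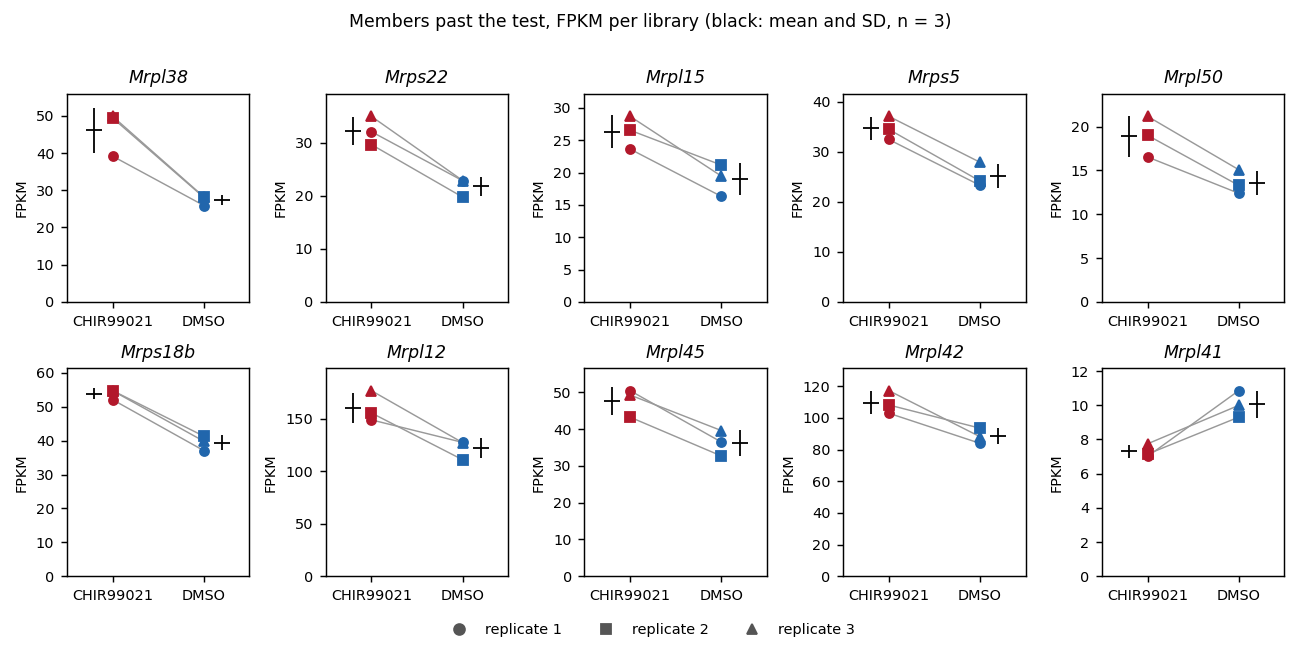
FPKM per library of the 9 genes that rose and of Mrpl41, which fell, with CHIR99021 left of DMSO, lines joining libraries of the same replicate number, and the mean and SD (n = 3) in black. In every panel the groups do not overlap, and for Mrpl38 the CHIR99021 libraries lie between 39.2 and 49.9 FPKM.

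Small- and large-subunit genes had nearly the same median change. It was 0.16 on the log2 scale in both. Positive changes were seen in 22 of 29 small-subunit and 35 of 47 large-subunit genes, against 45.2% of all tested genes. With the block 12 and 18 rose and 1 and 1 fell, against 18.4% and 24.4% of all tested genes. Assigning Mrps18a and Mrps30 to the large subunit and leaving out Mrps36, as their known places in the structure have it, gave 3 of 26 small-subunit genes higher with a median of 0.15 and 6 of 49 large-subunit genes higher with a median of 0.16. No test of a difference between the subunits was made.

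The summed FPKM of all 76 genes was 3670 ± 138 in CHIR99021 and 3409 ± 169 in DMSO libraries (SD, n = 3 each), or 0.616% ± 0.0209 and 0.587% ± 0.0213 of the summed FPKM of each library. Small-subunit genes summed to 1343 ± 31.9 FPKM in CHIR99021 and 1273 ± 83.8 FPKM in DMSO libraries, and large-subunit genes to 2327 ± 106 and 2136 ± 85.3 FPKM. The ratio of small to large was 0.575, 0.591 and 0.565 in CHIR99021 libraries, against 0.609, 0.577 and 0.601 in DMSO libraries. The ratio was lower with CHIR99021 for replicates 1 and 3 and higher for replicate 2, and the groups overlapped. Its mean was 0.577 ± 0.0129 in CHIR99021 and 0.596 ± 0.0163 in DMSO libraries, or 0.505 ± 0.00962 and 0.523 ± 0.0196 with the subunits assigned by structure.

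**Figure D3:**
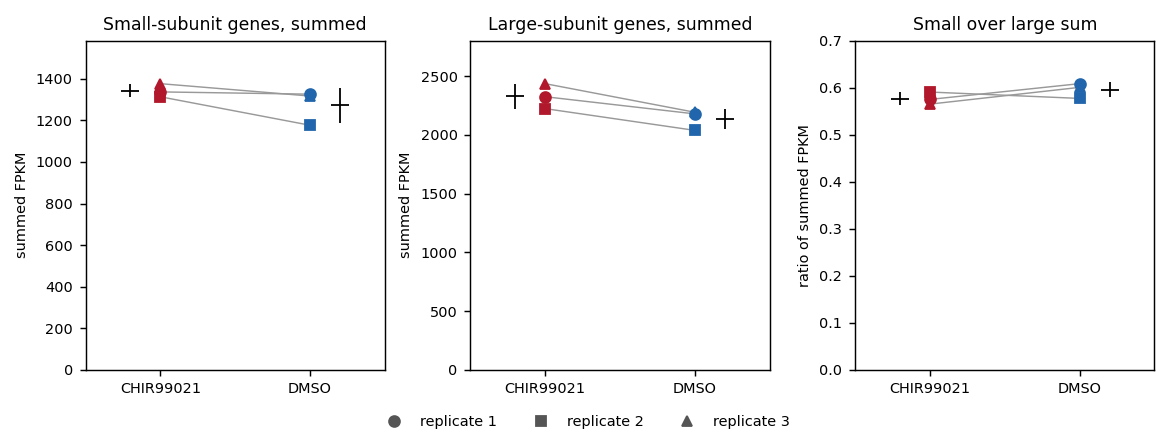
Summed FPKM of the small-subunit genes and of the large-subunit genes, and the ratio of the sums, per library, with CHIR99021 left of DMSO, lines joining the same replicate number, and the mean and SD (n = 3) in black. The ratio lies between 0.565 and 0.609 in all 6 libraries, and the groups overlap.

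Sorted by kinship, 48 of the genes encode proteins with a bacterial counterpart and 27 encode mitochondria-specific proteins, with Mrps36 left out. Mrps18a and Mrps18b were counted among the 48 as relatives of bacterial S18, although the names mL66 and mS40 have the mitochondria-specific form. Of the first, 4 (8.33%) rose and none fell, with a median log2 change of 0.17. Of the second, 5 (18.5%) rose and 1 (3.70%) fell, with a median of 0.14. The shares over all tested genes were 8.13% and 13.3%. With the block, 21 (43.8%) rose and 1 fell among the 48, and 9 (33.3%) rose and 1 fell among the 27. Over all tested genes 18.4% rose and 24.4% fell with the block. The genes with the 2 largest changes, Mrpl38 and Mrps22, are of the second kind.

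Levels ranged 21.8-fold across the family, with means over the 6 libraries from 6.50 FPKM for Mrps25 to 141 FPKM for Mrpl12 and a median of 37.4 FPKM, against a median of 11.5 FPKM over all tested genes. Under 10 FPKM were Mrps25, Mrpl41, Mrpl17, Mrpl19 and Mrps31, and over 100 FPKM were Mrpl12, Mrpl52, Mrps21, Mrpl18, Mrpl20, Mrpl33 and Mrps7. The 19 genes with the highest levels had a median log2 change of 0.00, and the 19 with the lowest one of 0.24. Across the 76 genes the change and the mean level had a Spearman correlation of -0.29, against 0.06 over all tested genes. The change and the length of the longest annotated transcript in GENCODE vM21 had one of 0.28, and level and length one of -0.33; the points share the same 6 libraries, and FPKM itself is divided by a length. The median standard error of the change was 0.10 in the family and 0.14 over all tested genes.

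The genes are spread over 17 chromosomes, with 10 on chromosome 11 and 8 on chromosome 17, and their deposited spans run from 825 to 121712 bases. The spans of 7 genes (Mrpl19, Mrpl24, Mrpl41, Mrpl48, Mrpl49, Mrpl53 and Mrps25) overlap that of another tested gene, so that their FPKM are less certain. In the GENCODE vM21 annotation, 32 of the 76 have a gene on the other strand starting within 1000 bases of their own start, and for 27 this neighbour was tested. Of those neighbours 1 rose, Tcp1 beside Mrpl18, and 3 fell, Klc4, Ncapd2 and Pnpla7, beside Mrpl2, Mrpl51 and Mrpl41. Over all tested genes 8.13% rose and 13.3% fell. The median log2 change of the neighbours was 0.07, against -0.04 over all tested genes. Mrpl46 and Mrps11 are neighbours of each other, and both were counted. Pnpla7, which encodes a lysophospholipase and starts 935 bases from Mrpl41, had means of 4.41 FPKM in CHIR99021 and 6.78 FPKM in DMSO libraries (limma, adjusted p = 0.0365). Of the genes that rose without the block, only Mrps18b had a tested neighbour, Ppp1r10, at means of 27.5 FPKM in CHIR99021 and 19.7 FPKM in DMSO libraries (limma, adjusted p = 0.184, 0.0316 with the block). Helq, which starts 29 bases from Mrps18c, likewise rose only with the block (limma, adjusted p = 0.194, 0.0156 with the block).

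In the RefSeq promoter table, which gives 300 bases from 250 before to 50 after a start on GRCm38.p6, 67 of the 76 genes had an entry. The ETS letters CCGGAAG occurred on either strand in 24 of the 67 (35.8%), against 9.93% of all 27025 genes in the table, a gene counting once if any of its promoters holds the letters. The YY1 letters ATGGCGG occurred in 13 (19.4%), against 4.69% of all genes, and the NRF1 letters GCATGCG, the core bound by nuclear respiratory factor 1, in 8 (11.9%), against 4.01%. All 67 passed the limit on level in these libraries, while the 27025 genes were not limited to tested ones. Shares among tested genes alone were not computed, so these shares do not set the family apart from other expressed genes. The ETS letters lay at a median of 22.5 bases before the start and the YY1 letters 17 bases after it. The letters ATGGCGG begin with a start codon, and coding sequence was not set apart from YY1 sites.

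As a ratio, the shares of other letters lay nearer those of all genes, and for the E-box and NFY slightly below them. In percentage points, the gap of the SP/KLF letters was wider than that of the NRF1 letters. The E-box CACGTG, bound by MYC and its relatives, occurred in 5 of the 67 (7.46%), against 8.09% of all genes; the CRE letters TGACGTC in 4 (5.97%), against 3.60%; the NFY letters CCAAT in 27 (40.3%), against 41.1%; and the SP/KLF letters GGGCGG in 33 (49.3%), against 38.2%. By subunit, the ETS letters were found in 11 of 26 small-subunit and 13 of 41 large-subunit genes, and the NRF1 letters in 1 and 7. Of the 7 genes that rose and had an entry, 2 held the ETS letters, as did 22 of the 60 other members. Mrps18b held both the NRF1 and the ETS letters, Mrps22 the ETS letters as printed above, and Mrps5 and Mrpl50 the YY1 letters. A match is a description of these letters and not a bound site.

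Of 16 listed nuclear regulators of genes for mitochondrial proteins, 13 were tested and none passed without the block, while Pprc1 rose and Ddit3 fell with it. Over all tested genes 8.13% rose and 13.3% fell, and 18.4% and 24.4% with the block. Nrf1 had 15.9, 16.9 and 20.2 FPKM with CHIR99021, against 17.2, 16.7 and 20.7 FPKM with DMSO. Gabpa, the DNA-binding subunit of GABP, had 15.2, 12.7 and 13.3 FPKM with CHIR99021, against 13.8, 15.4 and 15.3 FPKM with DMSO. Yy1 had 32.5, 35 and 35.5 FPKM with CHIR99021, against 35.7, 37.2 and 38.4 FPKM with DMSO. Nrf1 and Gabpa overlapped between groups (limma, adjusted p = 0.842 and 0.527), while every CHIR99021 library of Yy1 was below every DMSO library (log2 change -0.11, limma, adjusted p = 0.369). Gabpb1, a partner subunit of Gabpa, had 20.0, 22.6 and 21 FPKM with CHIR99021, against 18.6, 20.6 and 19.5 FPKM with DMSO (limma, adjusted p = 0.435). Gabpb2, another, had 11.1, 14.1 and 11.5 FPKM with CHIR99021, against 11.1, 18.1 and 13.2 FPKM with DMSO (limma, adjusted p = 0.547). Hcfc1, a cofactor of several of these factors, had 20.5, 33.5 and 25.1 FPKM with CHIR99021, against 17.7, 34.2 and 28.7 FPKM with DMSO (limma, adjusted p = 0.991).

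Among coactivators and their partner, Pprc1, a relative of PGC-1 that responds to growth signals, had 5.97, 10.7 and 7.06 FPKM with CHIR99021, against 3.29, 6.57 and 4.08 FPKM with DMSO. Each CHIR99021 library of Pprc1 was above the DMSO library of its number, while the groups overlapped (log2 change 0.67, limma adjusted p = 0.108, 0.00125 with the block). Esrra, a nuclear receptor that works with PGC-1, had 6.89, 7.75 and 7.03 FPKM with CHIR99021, against 7.24, 7.26 and 5.93 FPKM with DMSO (limma, adjusted p = 0.704). Ppargc1a and Ppargc1b, which encode PGC-1 alpha and beta, were too low to test. Ppargc1a had 0.237, 0.192 and 0.10 FPKM with CHIR99021, against 0.283, 0.119 and 0.115 FPKM with DMSO. Ppargc1b had 0.462, 0.900 and 0.741 FPKM with CHIR99021, against 0.593, 0.859 and 0.494 FPKM with DMSO.

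Myc, a driver of growth genes in activated B cells, had 37.9, 43 and 33.3 FPKM with CHIR99021, against 46.2, 32.6 and 32.6 FPKM with DMSO (limma, adjusted p = 0.877). Its partner Max had 36.7, 37.5 and 40.2 FPKM with CHIR99021, against 35.9, 34.4 and 37.3 FPKM with DMSO (limma, adjusted p = 0.501). Mycn was near 0 in all libraries, at 0, 0.0588 and 0.0681 FPKM with CHIR99021, against 0, 0 and 0.0591 FPKM with DMSO. Of the factors of the mitochondrial stress response, Atf4 had 239, 259.5 and 219 FPKM with CHIR99021, against 257, 241 and 236 FPKM with DMSO (limma, adjusted p = 0.829). Atf5 had 11.8, 9.28 and 12.7 FPKM with CHIR99021, against 12.1, 11.7 and 13.3 FPKM with DMSO (limma, adjusted p = 0.518). Ddit3 had 32.5, 25.4 and 22 FPKM with CHIR99021, against 72.2, 31.7 and 45.2 FPKM with DMSO. DMSO replicate 1 was far above the others. Ddit3 was lower with CHIR99021 in each numbered pair and fell only with the block (log2 change -0.81, limma adjusted p = 0.0746, 0.00584 with the block).

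Of the 8 other proteins of the mitochondrial ribosome, whose symbols do not follow the Mrps and Mrpl pattern, 1 rose and 1 fell. The shares over all tested genes were 8.13% and 13.3%. The median log2 change of the 8 was 0.12. With the block 3 rose and 1 fell, against 18.4% and 24.4% of all tested genes. Ptcd3 (mS39), an RNA-binding protein of the small subunit near the messenger RNA entry, had 32.6, 40.5 and 37.9 FPKM with CHIR99021, against 23.7, 24.1 and 24.3 FPKM with DMSO. Its groups were far apart (log2 change 0.60 ± 0.10, limma adjusted p = 0.00542). Ict1, the former name of Mrpl58 (mL62), a peptidyl-tRNA hydrolase built into the large subunit, had 25.8, 25.7 and 26 FPKM with CHIR99021, against 40.5, 30.4 and 34.6 FPKM with DMSO. Its CHIR99021 libraries were nearly equal and below each DMSO library (log2 change -0.42 ± 0.11, limma adjusted p = 0.0335).

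Of 27 genes for assembly and ribosomal RNA maturation, 3 rose and none fell, against 8.13% and 13.3% of all tested genes, with a median of 0.06. With the block 5 rose and 3 fell, against 18.4% and 24.4%. Noa1, a GTPase needed for the small subunit, had 24.8, 29.2 and 30.0 FPKM with CHIR99021, against 20.0, 18.5 and 21.6 FPKM with DMSO (limma, adjusted p = 0.0203). Fastkd2, an RNA-binding protein needed for the large subunit, had 11.5, 13.2 and 12.4 FPKM with CHIR99021, against 7.61, 9.10 and 9.19 FPKM with DMSO (limma, adjusted p = 0.0228). Wbscr16, the former name of Rcc1l, had 11.8, 14.3 and 13.4 FPKM with CHIR99021, against 9.03, 10.9 and 9.12 FPKM with DMSO (limma, adjusted p = 0.0454). In each of the 3, all CHIR99021 libraries were above all DMSO libraries.

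Of 15 tested translation factors and messenger RNA regulators, out of 17 listed, 3 rose and none fell, with a median of 0.23. The shares over all tested genes were 8.13% and 13.3%. With the block 7 rose, against 18.4% of all tested genes. Lrpprc, which keeps mitochondrial messenger RNAs stable, had 35.7, 43.2 and 43.6 FPKM with CHIR99021, against 20.3, 28.9 and 27.5 FPKM with DMSO (log2 change 0.67 ± 0.15, limma adjusted p = 0.0173). Tsfm, the exchange factor of the elongation factor that brings transfer RNA, had 23.9, 27.1 and 30.3 FPKM with CHIR99021, against 14.7, 16.5 and 21.3 FPKM with DMSO (limma, adjusted p = 0.0244). Gfm1, the translocation factor, had 27.9, 35.1 and 30.1 FPKM with CHIR99021, against 17.9, 24.1 and 24.1 FPKM with DMSO (limma, adjusted p = 0.0465). The groups did not overlap in any of the 3. Of 17 mitochondrial aminoacyl-tRNA synthetases, which load transfer RNAs with amino acids, 2 rose and none fell, with a median of 0.12. With the block 6 rose. The same shares over all tested genes apply to this list. Yars2, for tyrosine, had 15.9, 16.9 and 14.7 FPKM with CHIR99021, against 8.32, 12 and 10.8 FPKM with DMSO (limma, adjusted p = 0.0242). Mars2, for methionine, had 5.52, 5.33 and 4.42 FPKM with CHIR99021, against 3.31, 3.34 and 3.56 FPKM with DMSO (limma, adjusted p = 0.0395).

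Of 17 tested genes of mitochondrial transcription and genome upkeep, 4 rose and none fell, against 8.13% and 13.3% of all tested genes. Their median was 0.23. With the block 9 rose and 2 fell, against 18.4% and 24.4%. The 4 that rose without the block all handle mitochondrial RNA after it is made. Supv3l1, a helicase of RNA turnover, had 18.4, 23.6 and 21.2 FPKM with CHIR99021, against 12.7, 13.5 and 15 FPKM with DMSO (limma, adjusted p = 0.0122). Trmt10c and 1110008L16Rik, which is now named Prorp, encode subunits of the mitochondrial RNase P that frees the 5′ ends of transfer RNAs. Trmt10c had 16.2, 17.9 and 15.8 FPKM with CHIR99021, against 10.1, 13 and 10.7 FPKM with DMSO (limma, adjusted p = 0.0181). The gene 1110008L16Rik had 4.55, 5.59 and 6.82 FPKM with CHIR99021, against 3.50, 3.10 and 3.93 FPKM with DMSO (limma, adjusted p = 0.0467). Elac2, which cuts their 3′ ends, had 24.9, 34 and 28.9 FPKM with CHIR99021, against 19.8, 22 and 22.7 FPKM with DMSO (limma, adjusted p = 0.0492). Tfam, the packaging factor of mitochondrial DNA, was at 18.4 ± 1.08 FPKM in CHIR99021 and 18.3 ± 0.655 FPKM in DMSO libraries (SD, n = 3 each; limma, adjusted p = 0.993).

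Of 12 mitochondrial chaperones and proteases, 6 rose and none fell, against 8.13% and 13.3% of all tested genes, with a median log2 change of 0.43. With the block 8 rose, against 18.4%. Hspe1 and Hspd1 encode the chaperonin that folds imported proteins. Hspe1 had 455, 445 and 491 FPKM with CHIR99021, against 304, 316 and 318 FPKM with DMSO (limma, adjusted p = 0.00324). Hspd1 had 278, 369 and 354 FPKM with CHIR99021, against 157, 217 and 209.8 FPKM with DMSO (limma, adjusted p = 0.0120). Lonp1, the main protease of the matrix, had 56, 61.5 and 59.9 FPKM with CHIR99021, against 33.3, 42.6 and 37.7 FPKM with DMSO (limma, adjusted p = 0.00561). Clpp, the peptidase of another protease, had 28.1, 28.7 and 31.1 FPKM with CHIR99021, against 19.6, 22.3 and 22.8 FPKM with DMSO (limma, adjusted p = 0.0173). In each of the 4, all CHIR99021 libraries were above all DMSO libraries. Whether this list's median differs from that of the ribosome was not tested.

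Of the 83 tested cytosolic ribosomal proteins, 3 rose and none fell without the block, against 8.13% and 13.3% of all tested genes. With the block 52 rose, against 18.4%. The median log2 change was 0.17, close to the 0.16 of the mitochondrial ones. Rpl26 had 136, 212 and 179 FPKM with CHIR99021, against 86.2, 59.2 and 126 FPKM with DMSO (limma, adjusted p = 0.0364). Rps2 had 5612, 4560.1 and 5431 FPKM with CHIR99021, against 3819.5, 3243 and 3775 FPKM with DMSO (limma, adjusted p = 0.0382). Rps27l, a paralog of Rps27, had 266, 292 and 359 FPKM with CHIR99021, against 214, 208 and 224 FPKM with DMSO (limma, adjusted p = 0.0235). Cytosolic ribosomal protein genes have many near-identical copies in the genome, so their FPKM are uncertain. Of the 78 tested nuclear genes for subunits of oxidative phosphorylation, 12 rose and none fell, against 8.13% and 13.3% of all tested genes. Their median was 0.10. With the block 27 rose and 6 fell, against 18.4% and 24.4%. The 4 with the smallest p were Ndufa12 of complex I, Sdhd of complex II, Uqcrfs1 of complex III and Cox7c of complex IV. Ndufa12 had 179.5, 179 and 178 FPKM with CHIR99021, against 137, 126 and 138 FPKM with DMSO (limma, adjusted p = 0.00770). Sdhd had 250.1, 215 and 274 FPKM with CHIR99021, against 168, 148 and 176 FPKM with DMSO (limma, adjusted p = 0.0110). In both, the groups were apart. Uqcrfs1 had 108, 101 and 109.7 FPKM with CHIR99021, against 77.9, 70.3 and 81.5 FPKM with DMSO (limma, adjusted p = 0.00789). Cox7c had 291, 239 and 275 FPKM with CHIR99021, against 209, 199.8 and 194 FPKM with DMSO (limma, adjusted p = 0.0203). Here too no DMSO library reached a CHIR99021 library.

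**Figure D4:**
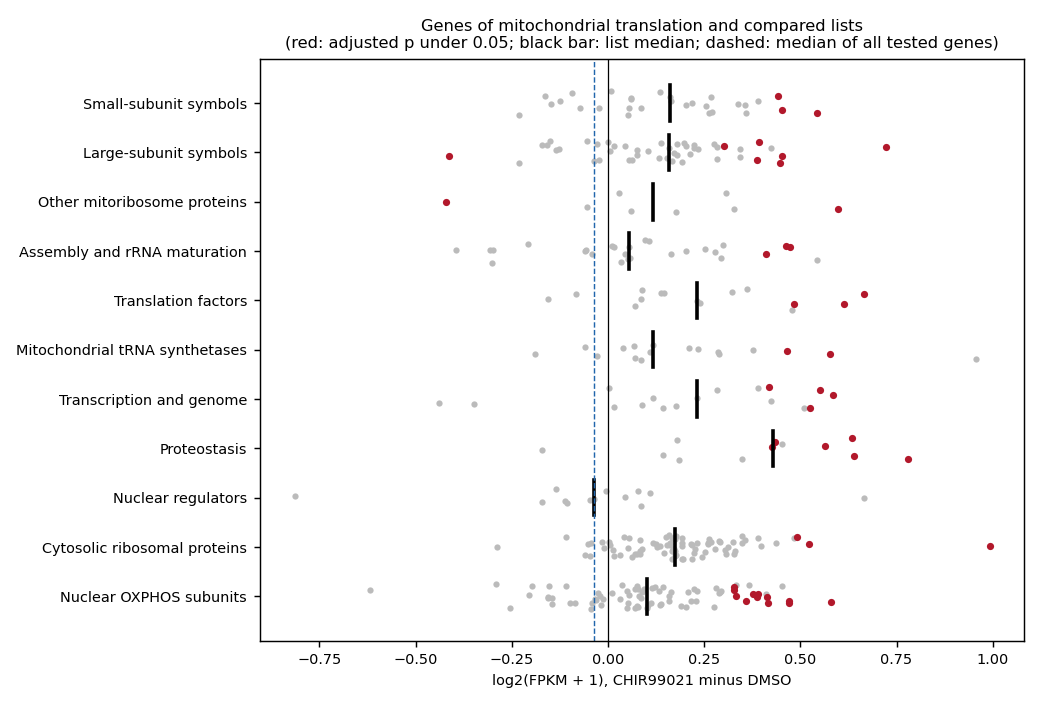
Difference in log2(FPKM + 1), CHIR99021 minus DMSO, for each tested gene of the subunits and of the compared lists, with genes past the test in red, the list median as a black bar and the median of all tested genes as a dashed line. The medians of the subunits are 0.16 each, that of the nuclear regulators is -0.04 and that of the proteostasis genes is 0.43.

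By replicate number, CHIR99021 was above DMSO for 46 of the 76 genes in replicate 1, 57 in replicate 2 and 55 in replicate 3, with median log2 differences of 0.11, 0.15 and 0.17. Over all tested genes the same shares were 44.6%, 47.6% and 45.0%, with medians of -0.05, -0.02 and -0.05. The median of the 76 genes was lowest in replicate 1, as was that of all tested genes (-0.051, against -0.020 and -0.046). The libraries of replicate 1 also had the highest Col1a1 levels of their groups, and a link between the 2 was not tested.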

How the data were processed

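Per the labels, polyadenylated RNA was sequenced from 6 libraries made with a TruSeq Stranded mRNA kit. The tools were TopHat2 2.1.1, Cufflinks 2.2.1 and cutadapt 1.12 on build mm10, per the submitters' processing notes. The sources used here do not give the annotation, the strand setting or the rule for multiply matching reads. Per the file headers, the authors deposited a gene FPKM with confidence limits for each library. The depth in fragments is not known from these tables. The deposited limits lay a median of 11.0% to 14.5% from the FPKM of the family's genes, depending on the library, and cover a single library only. The series describes biological triplicates. Summed FPKM per library ran from 527290 to 617449.

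Genes whose mean reached 1 FPKM, 10096 in all, were fitted as log2(FPKM + 1) by limma 3.58.1 (R 4.3.3; lmFit and trended eBayes), two-sided, for CHIR99021 minus DMSO, with Benjamini-Hochberg adjustment over all of them and a threshold of 0.05. Log2 changes are on the log2(FPKM + 1) scale, which understates those of low genes, and folds are ratios of mean FPKM. The script was tested on simulated data. Tables, promoter matches and figures were made with Python 3.11.15, pandas 2.3.3 and matplotlib 3.10.9. Processed copies of these genes elsewhere in the genome were not examined. Genes encoded by mitochondrial DNA were not analysed here, and a few cell type markers are not reported here.

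Replicate numbers 1 to 3 stand in the titles of both groups. Deviations from the group means correlated across genes at 0.535, 0.490 and 0.517 between same-numbered libraries and at -0.352 to -0.140 between others. Deviations cancel out within a group, so the other values must be negative on balance and add no evidence. Across the family's genes alone the same-numbered values were 0.274, 0.462 and 0.344. The numbers were taken to pair the libraries, a pairing that comes from the titles and this check. The fit with the replicate number as a block is given beside the family's counts, the list counts and the named genes whose call it changes. Other settings were other pseudocounts (0.1 and 5), other limits on level, other scalings, no variance trend and leaving out each library.

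The family and the gene lists were chosen with earlier results of these data known. Values per library are given for up to 5 called genes in each direction and subunit, for the 2 highest and 2 lowest in each, for Mrps18a, Mrps18b, Mrps18c, Mrps30, Mrps36, Mrps12 and Mrpl12, for up to 4 called genes of each list and for every nuclear regulator. Mrpl42, Tfam, the divergent neighbours with values and the cell type markers with values were added after their values were seen.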

Additional observations from a re-analysis of the deposited data

How the results depend on the processing

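None of the 10 called genes of the family changed sign under another setting. Genes near 0 that were not called did: Mrpl44, Mrpl10, Mrps15, Mrpl23 and Mrpl14 became positive with upper-quartile and quantile scaling, and Mrpl27, Mrps23 and Mrpl33 became negative with equal summed FPKM. The balance of calls over the whole table turned from more lower to more higher with quantile scaling and with the block joined to either scaling. The count of the 76 genes that rose, 9, was 5 with no limit on level, 4 with no variance trend, 4 with every library scaled to the same summed FPKM, 17 and 18 with upper-quartile and quantile scaling, and 3 to 7 when a library was left out. With the replicate block it was 30, and 37 and 38 with the block and upper-quartile or quantile scaling. Equal sums ended the calls of Mrps18b, Mrps5, Mrpl15, Mrpl50 and Mrpl42, no limit on level those of Mrpl15, Mrpl50, Mrpl45, Mrpl42 and Mrpl41, and no variance trend those of Mrpl15, Mrpl50, Mrpl12, Mrpl45 and Mrpl42. The count that fell, 1, was 0 with no limit on level or with quantile scaling, 2 with the block under each scaling, and 0 to 1 when a library was left out. The median log2 change of 0.16 was 0.21 with upper-quartile or quantile scaling, with or without the block, and 0.13 with equal summed FPKM.

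Small-subunit genes that rose, 3, numbered 6, 7 and 1 with upper-quartile, quantile and equal-sum scaling, 12 with the block and 14 with the block and upper-quartile or quantile scaling; 1 fell with the block under each scaling, and the median of 0.16 became 0.21 with upper-quartile or quantile scaling. Large-subunit genes that rose, 6, numbered 2 with no limit on level, 1 with no variance trend, 11 with upper-quartile and with quantile scaling, 3 with equal sums, 18 with the block, 23 and 24 with the block and those scalings, and 1 to 4 when a library was left out. The 1 that fell became 0 with no limit on level or quantile scaling and 0 to 1 with a library left out; the median of 0.16 became 0.21 with upper-quartile or quantile scaling and 0.12 with equal sums. Over the whole table, 821 genes rose, against 1232 with quantile scaling, 442 with equal sums, 1855 with the block, 2317 and 2382 with the block and those scalings, and 328 to 708 with a library left out. There 1343 fell, against 2466, 2183 and 2078 in the 3 block fits and 733 to 1275 with a library left out. The ratio of small to large of 0.577 in CHIR99021 and 0.596 in DMSO libraries became 0.505 and 0.523 by structure, and 0.981 and 1.06 from medians in place of sums. The cause of these shifts was not tested. Upper-quartile and quantile scaling moved the median log2 change of all tested genes from -0.04 to 0.01 and 0.03.

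The number of libraries limits what can be called: with 3 per group and a median standard error of 0.10 in the family, changes of the size of its median did not pass the test without the block. The deposited FPKM carry no fragment counts, so counting error could be read only from the deposited confidence limits.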
